A study of Homo sapiens with 12 samples.

Results

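The 41 genes described here encode folding proteins of the endoplasmic reticulum (ER) and, for QSOX1, of the compartments after it: 15 chaperones and co-chaperones, 20 members of the protein disulfide isomerase (PDI) family with their oxidases, and 6 peptidyl-prolyl isomerases of the FKBP type or cyclophilin B (PPIB). They were taken as a list of symbols, by the role of their proteins, from the 28278 genes of the count table. The RNA came from cultures of motor neurons made from WA09-Islet1-GFP, an established, wild-type human embryonic stem cell line that lights up with GFP where the motor neuron transcription factor Islet1 is on. Cultures were kept for 16 hours with the organochlorine pesticide cis-chlordane or with as much of its solvent DMSO, and FACS then split each of them by GFP. Of each fraction, GFP-positive and GFP-negative, there are 3 control and 3 treated libraries, all 12 from this 1 line and each number from cells thawed separately. The labels give a dose of 10 µM where the study's methods give another, and they open every title with untreated, also those of the treated libraries, whose treatment entry names cis-chlordane.

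Proteins that enter the secretory pathway fold inside the ER. HSPA5 (BiP), an HSP70 chaperone, binds unfolded chains in cycles of ATP hydrolysis that J-domain co-chaperones start and nucleotide exchange factors end, the lectins calreticulin and calnexin hold glycoproteins, PDI enzymes form and rearrange disulfide bonds with oxidising power from ERO1, and prolyl isomerases speed the turns at proline, which are frequent in collagen. When unfolded proteins gather, the sensors IRE1, PERK and ATF6 raise many of these genes in the unfolded protein response (UPR), and ATF6 and XBP1 bind ER stress elements in their promoters, where the factor NF-Y sits on the CCAAT box.

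The promoters with an ER stress element are shown first, since they are what several of the genes described below share in sequence. RefSeq gives windows of 250 bases before to 50 bases after the transcript start on GRCh38.p14 for 37 of the 41 genes (51 windows), and none was used for FKBP10, FKBP14, DNAJC1 and PDIA3. The element ERSE (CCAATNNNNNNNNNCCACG, either strand) was found in 7 of the 37 genes, which is 18.9%, against 25 of 27305 genes, or 0.0916%, over all windows. The shorter ERSE-II (ATTGGNCCACG, either strand) was found in HYOU1 and SDF2L1, which is 5.41% of the genes with a window against 0.0696% of all genes. The stretches follow in the direction of transcription, with the fixed bases of each element in capitals and, for HYOU1, also the UPRE core TGACGTG that overlaps the upstream element.
HSPA5: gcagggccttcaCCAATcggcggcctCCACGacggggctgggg
HSP90B1: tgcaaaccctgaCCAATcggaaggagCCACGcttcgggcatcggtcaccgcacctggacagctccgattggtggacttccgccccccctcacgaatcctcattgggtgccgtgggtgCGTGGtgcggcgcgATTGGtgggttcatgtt
CALR: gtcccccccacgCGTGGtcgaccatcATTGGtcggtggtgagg
CANX: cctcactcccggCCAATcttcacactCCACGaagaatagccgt
PDIA6: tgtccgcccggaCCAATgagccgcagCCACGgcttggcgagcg
CRELD2: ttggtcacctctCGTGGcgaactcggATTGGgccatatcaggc
ERO1B: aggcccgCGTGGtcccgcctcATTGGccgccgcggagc
HYOU1: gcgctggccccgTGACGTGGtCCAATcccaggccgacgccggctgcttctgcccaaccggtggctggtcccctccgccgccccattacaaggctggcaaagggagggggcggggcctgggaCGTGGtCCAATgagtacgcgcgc
SDF2L1: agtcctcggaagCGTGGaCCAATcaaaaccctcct
They lie at chr9:125241379-125241421 (- strand) for HSPA5, chr12:103930204-103930351 (+ strand) for HSP90B1, chr19:12938372-12938414 (+ strand) for CALR, chr5:179698766-179698808 (+ strand) for CANX, chr2:10812841-10812883 (- strand) for PDIA6, chr22:49918542-49918584 (+ strand) for CRELD2, chr1:236282171-236282208 (- strand) for ERO1B, chr11:119057262-119057405 (- strand) for HYOU1 and chr22:21642102-21642136 (+ strand) for SDF2L1. All lie upstream of the RefSeq transcript start of their window. In HSPA5 the printed stretch ends 36 bases before that start, and in ERO1B it begins 250 bases before it. In the GENCODE annotation the stretches of HSP90B1, CANX, CRELD2 and PDIA6 lie inside the gene, and that of HSPA5 reaches into it. Not every window of the members holds the start of a GENCODE transcript of its gene. HSP90B1 holds 2 ERSE in opposite orientation, and HYOU1 holds 2 ERSE-II. The UPRE core was found in 4 of the 37 genes (HYOU1, DNAJC10, TXNDC5 and TXNDC11), which is 10.8% against 2.4% of all genes, and the amino acid response element core TTGCATCA in 0 of 37 against 1.08%. A match describes the letters of the window and does not show that a factor binds there. As ER stress elements are known from the promoters of such genes, their shares among the members are a description and no independent finding.

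Total counts ran from 23414935 to 38347050 per library, with a median of 31553596. ISL1 transcripts checked the sort of control cells in CPM (reads of a gene scaled to the same library total). They stood at 66.1, 62.4 and 68.6 CPM in control GFP-positive cells and at 2.50, 2.41 and 2.80 CPM in control GFP-negative cells. In GFP-positive cells they fell with treatment to 8.01, 15.4 and 12.6 CPM. GFP marks cells where Islet1 is on, and whether treated and control fractions held the same kinds of cells was not tested. This limit holds for the response in each fraction and for its difference between fractions. The third control GFP-negative library stood apart by blood transcripts: 8 endothelial and blood markers summed to 4076 CPM there and to 16.0 and 16.6 CPM in the other control GFP-negative libraries, with HBB at 3520 CPM and PTPRC at 28.4 CPM, so the counts of calls that rest on GFP-negative controls are also given without it. In treated GFP-negative libraries 1 and 3, HBB stood at 139.9 and 107.8 CPM. In bulk RNA, fewer cells of a type and less RNA per cell cannot be told apart.

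In GFP-positive cells, 33 of the 40 members tested rose with cis-chlordane and 1 fell (edgeR quasi-likelihood test, Benjamini-Hochberg adjusted p under 0.05 over all genes tested), against 26.5% of all genes that rose and 24.4% that fell. Of the 40, 23 rose at least 2-fold and count as differentially expressed genes (DEGs), against 12.8% of all genes, and none was a DEG downwards, against 11.2%. The sets of 3 libraries did not overlap for 33 members that were higher in treated cells, against 26.9% of all genes, and for 3 that were lower, against 30.6%. The median log2 fold change of the 40 was 1.18, while that of all genes tested was 0.03.

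In GFP-negative cells, 30 of the 40 members tested rose and none fell, against 15.3% of all genes that rose and 16.2% that fell. DEGs with higher levels numbered 20, against 8.59% of all genes, and DEGs with lower levels 0, against 9.75%. For 33 members the lowest treated library exceeded the highest control, against 24.0% of all genes, and the median log2 fold change was 1.03, beside -0.01 for all genes. Without the third control library, 32 members rose and 19 were DEGs. By counting reads, the 41 genes took 0.385% ± 0.017 (SD, n = 3) of all counts in control and 1.42% ± 0.182 in treated GFP-positive cells, and 0.648% ± 0.0525 in control and 2.08% ± 0.176 in treated GFP-negative cells, where the control libraries gave 0.707%, 0.627% and, for the one with blood transcripts, 0.609%.

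**Figure D1:**
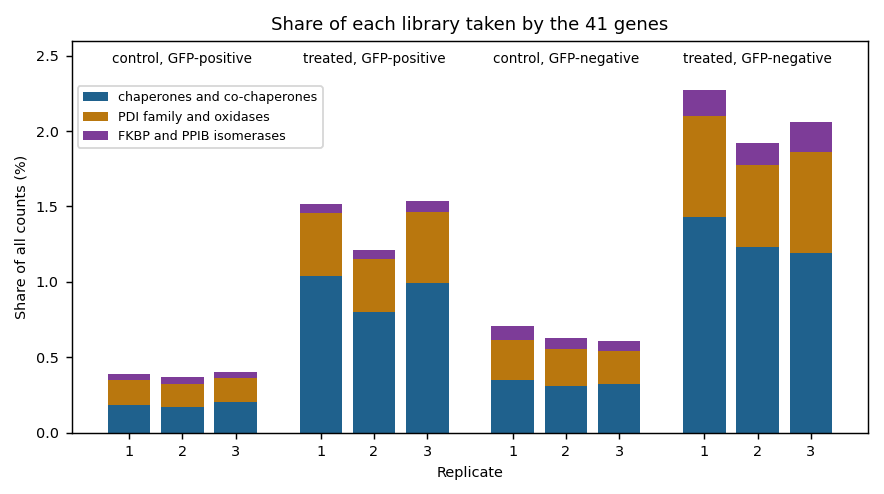
Share of all counts (%, y axis) taken by the 41 genes in each of the 12 libraries (x axis, replicates within the 4 groups), stacked by chaperones, PDI family and isomerases. Control libraries lie between 0.366% and 0.707%, and treated libraries between 1.21% and 2.27%.

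The chaperones took the larger part of this gain. Their share went from a mean of 0.185% to 0.941% of counts in GFP-positive and from 0.326% to 1.28% in GFP-negative cells, ratios of 5.09 and 3.93. The PDI family and oxidases went from 0.159% to 0.415% and from 0.243% to 0.631%, with ratios of 2.61 and 2.6, and the isomerases from 0.0401% to 0.0645% and from 0.0789% to 0.17%, with ratios of 1.61 and 2.15. These ratios of group means are given without a test.

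Among the chaperones and co-chaperones, 12 of 15 rose in each sort fraction, 10 of them as DEGs in each, with median log2 fold changes of 1.41 in GFP-positive and 1.39 in GFP-negative cells. HSPA5, the central HSP70 of the ER, stood at 307, 293 and 359 CPM in control and at 3649, 2840 and 3052 CPM in treated GFP-positive cells. In GFP-negative cells it stood at 613, 471 and 452 CPM in control and at 6752, 5734 and 5635 CPM in treated libraries. The lowest treated library thus exceeded the highest control library in both fractions, and the log2 fold change was 3.38 ± 0.17 (SE, adjusted p = 1.2e-17) in GFP-positive and 3.54 ± 0.17 (adjusted p = 4.73e-06) in GFP-negative cells, or 10.4-fold and 11.6-fold. Of all reads from the 41 genes, HSPA5 held 7.95% in control and 24.2% in treated GFP-positive cells, and 7.91% and 27.4% in GFP-negative cells.

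HSP90B1 (GRP94), the HSP90 of the ER, stood at 225, 159 and 209 CPM in control and 1205, 1103 and 1345 CPM in treated GFP-positive cells. Its log2 fold change was 2.69 ± 0.17 there and 2.04 ± 0.19 in GFP-negative cells, where the controls lay at 426, 316 and 355 CPM and the treated libraries at 1800, 1208 and 1578 CPM. HYOU1 (GRP170), a large HSP70 relative that exchanges the nucleotide of HSPA5, rose by 2.24 ± 0.17 and 2.36 ± 0.15 on the log2 scale, from 239, 278 and 262 to 1344, 906 and 1265 CPM in GFP-positive cells. The groups of these genes did not overlap in either fraction. SIL1, the other exchange factor of HSPA5 among the members, gave 17.1, 19.2 and 14.3 CPM in control and 16.6, 20.9 and 13.7 CPM in treated GFP-positive cells, groups that overlap, with a log2 fold change of 0.08 ± 0.20. In GFP-negative cells its treated libraries (39.2, 38.4 and 36.6 CPM) lay above all controls (33.9, 24.1 and 18.3 CPM), with 0.56 ± 0.23 and an adjusted p of 0.0903. SIL1 passed the test there without the first control library (0.82) and in a fit of all 12 libraries (0.61).

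The J-domain proteins, which start the ATP cycle of HSPA5, rose to different extents. DNAJB9 (ERdj4), which also returns HSPA5 to the sensor IRE1, stood at 22.7, 16.4 and 22.0 CPM in control and 89.1, 68.1 and 154 CPM in treated GFP-positive cells, and at 8.74, 9.87 and 13.03 and 65.1, 49.0 and 89.2 CPM in GFP-negative cells. All treated libraries exceeded all controls of the same fraction, and the log2 fold changes were 2.42 ± 0.22 and 2.67 ± 0.26. SEC63, the J-domain protein of the translocation channel, rose by 2.09 and 1.59, and DNAJB11 (ERdj3), which delivers chains to HSPA5, by 1.87 and 1.36 on the log2 scale. DNAJC1 (ERdj1), a membrane J-domain protein, rose by 0.87 in GFP-positive and 1.51 in GFP-negative cells and was a DEG in the latter.

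The lectin chaperones bind glycoproteins through the same sugar, calnexin from the membrane and calreticulin from the lumen. CANX stood at 248, 275 and 362 CPM in control and 1092, 893 and 1284 CPM in treated GFP-positive cells, with a log2 fold change of 1.95 ± 0.18, and at 235, 301 and 342 and 982, 988 and 992 CPM in GFP-negative cells, with 1.74 ± 0.17. CALR stood at 506, 558 and 539 and 1233, 1093 and 1212 CPM in GFP-positive cells and at 1209, 983 and 965 and 1680, 1403 and 1662 CPM in GFP-negative cells. CALR rose by 1.21 ± 0.16 in the former and by 0.57 ± 0.15 (adjusted p = 0.0178) in the latter, less than 2-fold. It missed the threshold in GFP-negative cells without control replicate 2 (0.52) or treated replicate 1 (0.51).

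SDF2L1, a partner of DNAJB11, and MANF, a secreted ER protein that binds HSPA5, have relatives among the members that gave other values. SDF2L1 stood at 15.4, 18.0 and 15.3 CPM in control and 43.2, 39.4 and 40.9 CPM in treated GFP-positive cells and rose by 1.41 ± 0.18 there and 1.23 ± 0.26 in GFP-negative cells. Its paralog SDF2 had log2 fold changes of -0.28 ± 0.17 (adjusted p = 0.167) and 0.08 ± 0.19 (adjusted p = 0.76), and its treated GFP-positive libraries (39.4, 38.6 and 45.7 CPM) all lay below the controls (51.4, 57.2 and 49.1 CPM). MANF rose by 1.19 ± 0.16 in GFP-positive cells, from 61.6, 53.7 and 50.7 to 122, 111 and 129 CPM, and by 0.96 ± 0.23 in GFP-negative cells, where the call was lost without control replicate 2 (0.86) or treated replicate 1 (0.90). CDNF, the relative of MANF, had 1 to 19 counts per library, with 0.42 ± 0.53 and 0.84 ± 0.67 on the log2 scale. With errors of this size, the values do not settle whether CDNF responded as MANF did. SERPINH1 (Hsp47), the chaperone of procollagen, rose by 0.91 ± 0.17 in GFP-positive cells (30.2, 33.6 and 39.6 to 62.9, 56.9 and 65.6 CPM) and by 1.39 ± 0.16 in GFP-negative cells (411, 376 and 304 to 955, 955 and 989 CPM).

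**Figure D2:**
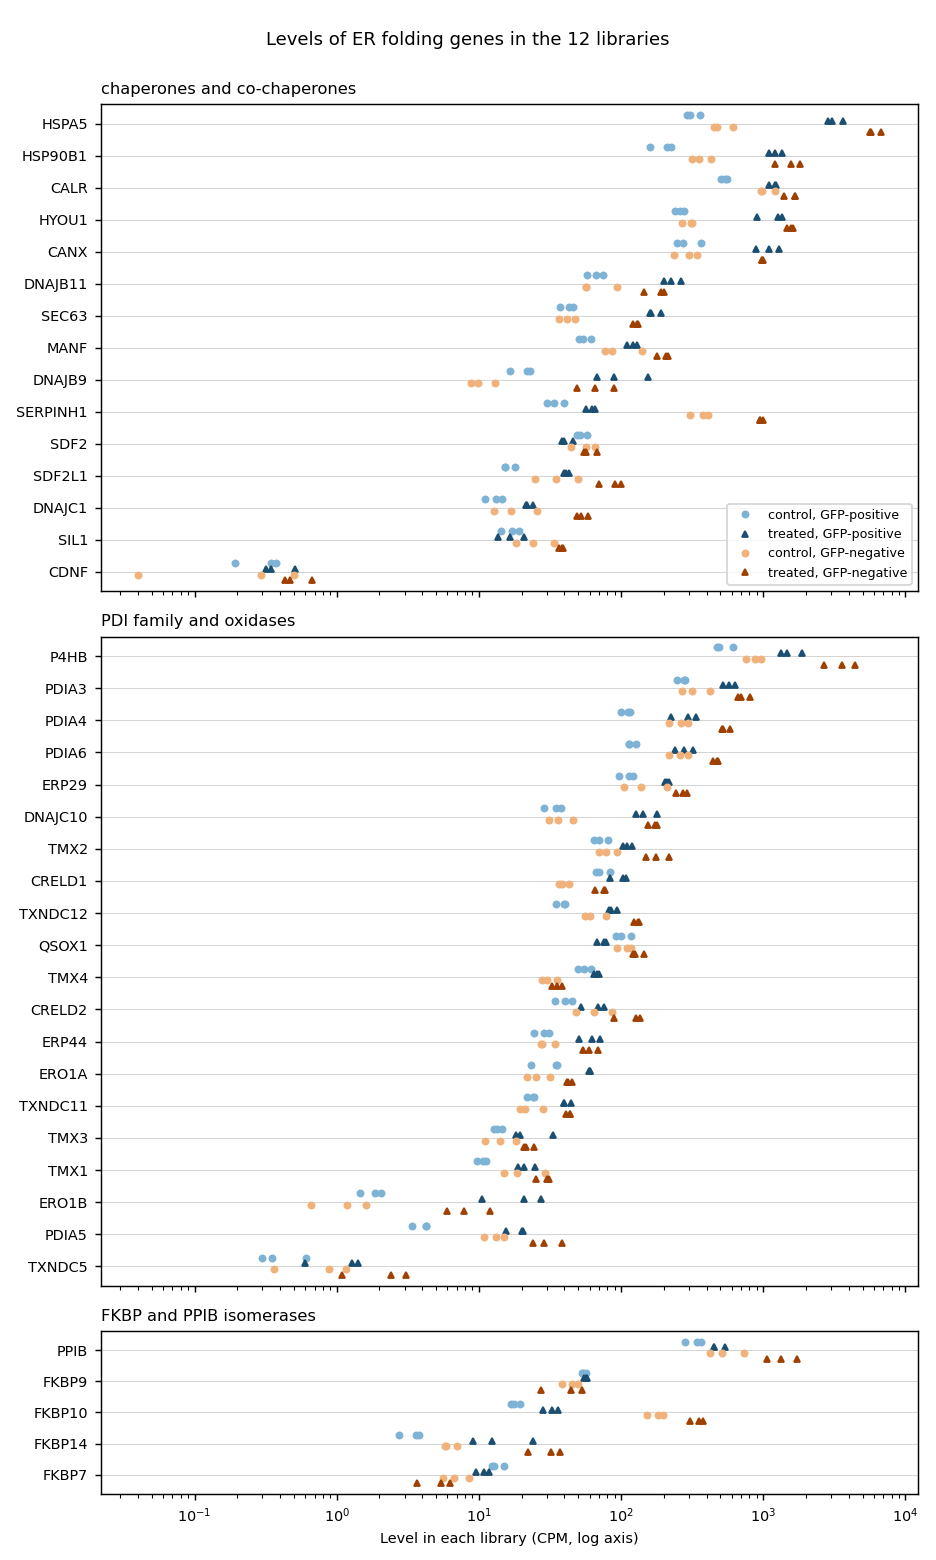
Level of 40 of the 41 genes in every library (CPM, log axis), with circles for control and triangles for treated libraries and a separate line of points for each of the 4 groups within a gene. FKBP2, with 0 to 6 counts per library, is left out; the treated points of HSPA5 lie between 2840 and 6752 CPM, to the right of all its control points.

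In the PDI family and its oxidases, 18 of 20 genes rose in GFP-positive cells, 12 as DEGs, and 15 rose in GFP-negative cells, 8 as DEGs, with medians of 1.13 and 0.92. Both ERO1 oxidases, which pass electrons from PDI to oxygen, rose in each fraction. ERO1B stood at 1.45, 2.06 and 1.86 CPM in control and 20.9, 10.5 and 27.4 CPM in treated GFP-positive cells, and at 0.657, 1.18 and 1.60 and 7.82, 5.999 and 12.04 CPM in GFP-negative cells. Its log2 fold changes of 3.51 ± 0.28 (adjusted p = 1.01e-12) and 2.90 ± 0.40 (adjusted p = 0.000733) rest on low levels, but no treated library overlapped a control. ERO1A rose from 35.0, 23.1 and 35.4 to 60.3, 59.9 and 60.4 CPM in GFP-positive cells, by 1.02 ± 0.18, which is at the 2-fold limit and was under it without control replicate 2 (0.835), with DESeq2 (0.99) or RLE scaling (0.99) and after removal of the GC trend (0.585), while the rise itself passed the test in each of these fits. In GFP-negative cells ERO1A rose by 0.70 ± 0.19, a call lost without control replicate 2 (0.58) or treated replicate 1 (0.65) and after removal of the GC trend (0.40).

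QSOX1, an oxidase that makes disulfides in the Golgi apparatus and outside the cell, was the member that fell. It stood at 99.6, 118 and 92.3 CPM in control and 78.9, 67.5 and 75.6 CPM in treated GFP-positive cells, with a log2 fold change of -0.42 ± 0.16 (adjusted p = 0.0323). In GFP-negative cells the treated libraries (126, 122 and 145 CPM) lay above the controls (109.7, 117 and 93.7 CPM), with 0.28 ± 0.16 (adjusted p = 0.207). The fall in GFP-positive cells missed the threshold without control replicate 1 (-0.44) or 2 (-0.31) or treated replicate 2 (-0.37), with library size alone (-0.30) and after removal of the GC trend (-0.18).

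P4HB, the classical PDI and a subunit of the collagen prolyl hydroxylase, stood at 487, 616 and 472 CPM in control and 1478, 1336 and 1875 CPM in treated GFP-positive cells and at 970.2, 880.1 and 751 and 3601, 2683 and 4451 CPM in GFP-negative cells. It rose by 1.64 ± 0.17 and 2.02 ± 0.20, with no overlap in either fraction. DNAJC10 (ERdj5), which reduces disulfides before degradation, rose by 2.22 ± 0.18 and 2.15 ± 0.18, from 34.7, 28.7 and 37.9 to 143, 127 and 180.2 CPM in GFP-positive cells. PDIA3 (ERp57), which works with the lectin chaperones, rose by 1.17 ± 0.16 and 1.09 ± 0.19, PDIA4 (ERp72) by 1.46 ± 0.17 and 1.05 ± 0.16, and PDIA6 (P5) by 1.30 ± 0.16 and 0.84 ± 0.16. In GFP-negative cells PDIA3 and PDIA4 lay just past the 2-fold limit and were under it without control replicate 3 (0.94 and 0.93) or treated replicate 1 (0.99 and 0.97).

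PDIA5, a less studied PDI, had some of the larger changes. It stood at 4.21, 3.36 and 4.26 CPM in control and 20.1, 15.5 and 20.3 CPM in treated GFP-positive cells, and at 14.9, 13.2 and 11.0 and 38.2, 28.6 and 24.1 CPM in GFP-negative cells. The log2 fold changes were 2.31 ± 0.22 and 1.20 ± 0.23, the latter 0.99 and thus under 2-fold without treated replicate 1. ERP44, which retains ERO1 in the early secretory pathway, rose by 1.19 ± 0.18 and 1.01 ± 0.18. Removal of the GC trend gave ERP44 0.76 and 0.76, below 2-fold in both fractions. In GFP-negative cells ERP44 was under the 2-fold limit without control replicate 1 (0.97) or 2 (0.95) or treated replicate 1 (0.89). ERP29, a family member without the redox active site, rose by 0.998 ± 0.16, a fold just under 2, and 0.81 ± 0.24, the latter lost without control replicate 2 (0.75) or treated replicate 1 (0.79) or 3 (0.75).

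The thioredoxin-like members bound to the ER membrane gave mixed values. TMX1 rose by 1.09 ± 0.20 in GFP-positive cells, or 0.98 without treated replicate 3 and 0.53 after removal of the GC trend, both below 2-fold, and had 0.45 ± 0.25 (adjusted p = 0.195) in GFP-negative cells, where its groups overlapped and where it passed at 0.76 without the control library with blood transcripts. TMX2 rose by 0.69 ± 0.16 and 1.15 ± 0.18, the latter 0.99 without treated replicate 3. TMX3 rose by 0.86 ± 0.21 in GFP-positive cells, or 0.30 (not passing) after removal of the GC trend. In GFP-negative cells TMX3 had 0.60 ± 0.21 (adjusted p = 0.0563), passing with DESeq2 (0.61), in a fit of all 12 libraries (0.65) and without control replicate 3 (0.80). TMX4 had 0.35 ± 0.17 (adjusted p = 0.0731), passing with library size alone (0.46) or the replicate number as a block (0.36), and 0.17 ± 0.17 (adjusted p = 0.498).

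Of the members named after a thioredoxin domain, TXNDC12 (ERp18) rose by 1.24 ± 0.17 and 0.97 ± 0.17, and TXNDC11 by 0.88 ± 0.18 and 0.87 ± 0.19, the latter lost without control replicate 2 (0.77). TXNDC5 (ERp46) had only 8 to 87 counts per library. It rose by 1.42 ± 0.46 (adjusted p = 0.00941) in GFP-positive cells, a call lost without treated replicate 1 (1.19). In GFP-negative cells it had 1.44 ± 0.52 (adjusted p = 0.0583). There it passed with DESeq2 (1.44), with at least 10 counts in every library (1.43) and in a fit of all 12 libraries (1.48). It also passed there without control replicate 3 (1.78) or treated replicate 2 (1.77). Treated and control libraries of TXNDC5 overlapped in both fractions, in GFP-positive cells with 0.298, 0.608 and 0.352 CPM in control and 1.41, 0.601 and 1.27 CPM in treated libraries. In GENCODE release 44, 60.9% of the exon bases of TXNDC5 are shared with the read-through gene BLOC1S5-TXNDC5, which has 0 counts in all 12 libraries, and 48.5% of those of TXNDC12 with another gene on the same strand, so reads of both genes may have been left uncounted.

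CRELD1 and CRELD2, which carry EGF-like repeats, rose by 0.48 ± 0.17 and 0.78 ± 0.18 in GFP-positive and by 0.86 ± 0.16 and 0.80 ± 0.24 in GFP-negative cells, none of them a DEG. CRELD1 in GFP-positive cells missed the threshold without control replicate 1 (0.45) or 3 (0.415) or treated replicate 1 (0.41) or 2 (0.43). CRELD2 in GFP-negative cells missed it without control replicate 2 (0.78) or 3 (0.62) or treated replicate 1 (0.72) or 3 (0.69).

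Of the 6 prolyl isomerases, 5 could be tested, and FKBP14, FKBP10 and PPIB rose in both fractions, with medians of the 5 of 0.61 and 0.94. FKBP14 (FKBP22), which acts on collagen, stood at 3.77, 2.75 and 3.62 CPM in control and 12.4, 9.16 and 24.0 CPM in treated GFP-positive cells, and at 6.997, 5.82 and 5.92 and 32.1, 22.0 and 37.2 CPM in GFP-negative cells. It rose by 2.24 ± 0.27 and 2.26 ± 0.24 without overlap. PPIB (cyclophilin B), which forms a complex with the collagen prolyl hydroxylase P3H1, stood at 341, 365 and 282 and 449.5, 449 and 539.6 CPM in GFP-positive and at 729, 512 and 424 and 1329, 1063 and 1719 CPM in GFP-negative cells, and rose by 0.61 ± 0.16 and 1.28 ± 0.24. FKBP10 (FKBP65), another collagen isomerase, rose by 0.90 ± 0.18 and 0.94 ± 0.16, from 17.8, 19.6 and 16.8 to 35.8, 28.4 and 32.6 CPM and from 198, 182 and 153 to 351, 305 and 379 CPM.

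FKBP9 and FKBP7, both with calcium-binding domains, did not pass the test in either fraction. FKBP9 had 0.12 ± 0.16 and -0.12 ± 0.25, and FKBP7 -0.25 ± 0.20 (adjusted p = 0.311) and -0.45 ± 0.29 (adjusted p = 0.265). All 3 treated GFP-positive libraries of FKBP7 (9.52, 10.9 and 11.8 CPM) lay below the controls (12.7, 12.4 and 15.04 CPM), and after removal of the GC trend it passed at -0.71. In GENCODE release 44, 26.6% of the exon bases of PPIB lie opposite SNX22, and whether the authors' counting used strand is not given in the sources used here. The same holds for 30.0% of those of CRELD1, opposite PRRT3, and 25.2% of those of PDIA6, opposite ATP6V1C2. On the same strand, CRELD1 shares 22.5% with another gene and PDIA5 12.0% with SEC22A. Overlaps of further members are not listed here. FKBP2 had 0 to 6 counts per library and was not tested. In GENCODE release 44, 71.0% of its exon bases are shared with another gene on the same strand.

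**Figure D3:**
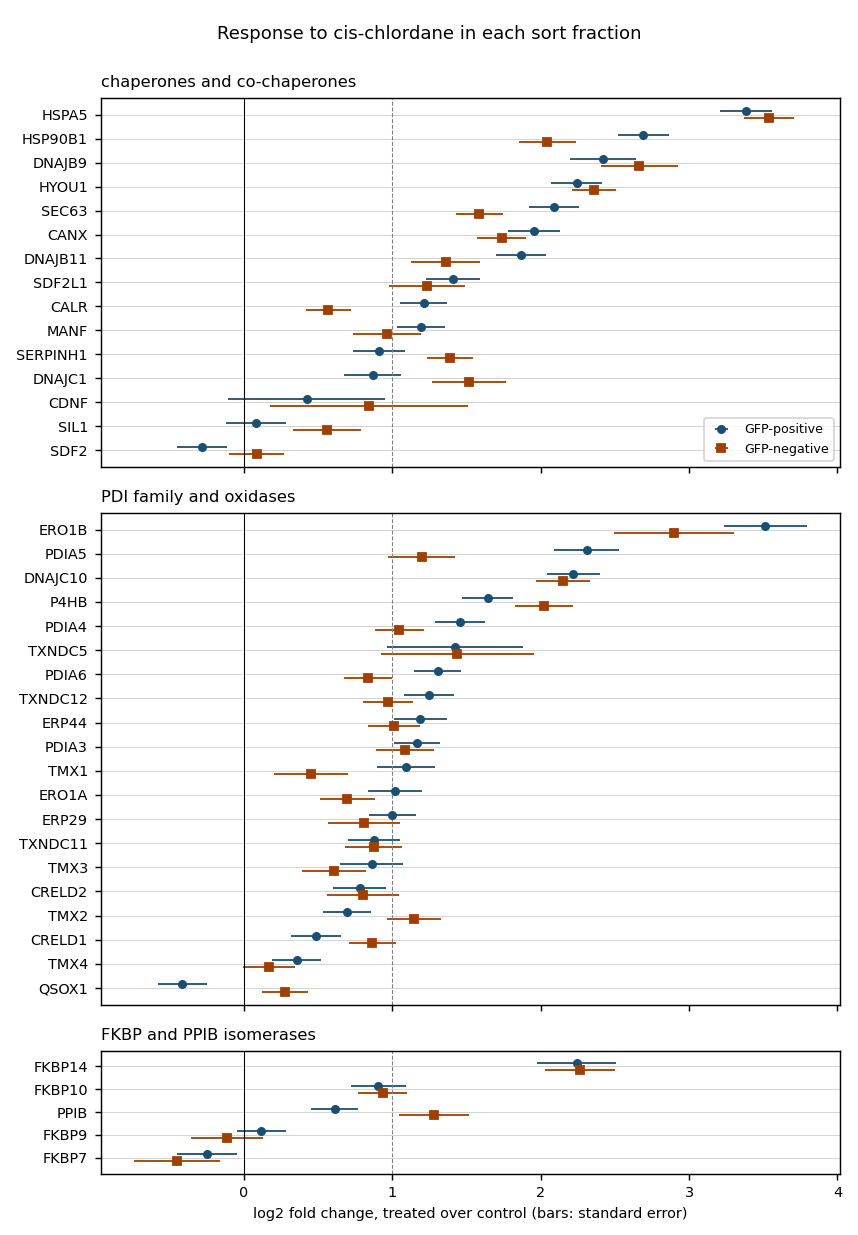
log2 fold change of treated over control cells (x axis, bars give the standard error of the fit) for the 40 genes tested, with circles for GFP-positive and squares for GFP-negative cells. The dashed line marks a 2-fold increase; HSPA5 and ERO1B lie farthest to the right in GFP-positive cells, at 3.38 and 3.51, and QSOX1 is the lowest there, at -0.42.

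Some members near the 2-fold limit crossed it upwards when 1 library was left out. In GFP-positive cells these were ERP29 without control replicate 1 (1.07) or 2 (1.01) or treated replicate 1 (1.01), and SERPINH1 without control replicate 3 (1.01). In GFP-negative cells they were MANF (1.28), TXNDC11 (1.05), TXNDC12 (1.13), ERP29 (1.13), CRELD2 (1.04) and FKBP10 (1.02) without control replicate 1, and MANF (1.05) and FKBP10 (1.02) without treated replicate 2. Removal of the GC trend, which weakened some rises, took others past the limit. In GFP-positive cells these were SERPINH1 (1.19), TXNDC11 (1.04), CRELD2 (1.01) and FKBP10 (1.26), and in GFP-negative cells MANF (1.05), CRELD1 (1.005) and FKBP10 (1.155). With it, SIL1 (0.77) and QSOX1 (0.42) also passed the test as higher in GFP-negative cells.

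The response was then compared with the printed elements. All 9 genes with ERSE or ERSE-II rose in both fractions, with medians of 1.95 in GFP-positive and 1.74 in GFP-negative cells and ranges of 0.78 to 3.51 and 0.57 to 3.54. Of the 27 tested genes with a window and neither element, 20 rose in GFP-positive and 17 in GFP-negative cells, with medians of 1.00 and 0.96 and ranges of -0.42 to 2.42 and -0.45 to 2.67. DNAJB9 and DNAJC10 are among the latter, at 2.42 and 2.22 in GFP-positive cells, so the ranges of these groups of genes overlap. No test was made, since these genes were chosen with results known.

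Within a library, the ratio of related genes does not depend on the scaling. The log2 ratio of SDF2L1 to SDF2 was -1.70 ± 0.04 (SD, n = 3) in control and 0.00 ± 0.15 in treated GFP-positive cells, and -0.65 ± 0.24 and 0.53 ± 0.17 in GFP-negative cells. That of HSPA5 to HSPA8, the constitutive HSP70 of the cytosol, went from -2.33 ± 0.21 to 1.20 ± 0.30 and from -1.84 ± 0.32 to 1.68 ± 0.15. For HSP90B1 to the cytosolic HSP90AB1 it went from -3.32 ± 0.32 to -0.94 ± 0.11 in GFP-positive cells, and for PPIB to the cytosolic cyclophilin PPIA from -1.10 ± 0.06 to 0.32 ± 0.29. PPIA itself fell there, with a log2 fold change of -0.80 ± 0.16 (adjusted p = 0.000117), from 709.5, 773 and 636 to 313, 452 and 399 CPM, while PPIB had 0.61 ± 0.16, so its ratio moved through both genes. HSPA8 (-0.15 and 0.03) and HSP90AB1 (0.33 and 0.18) passed in neither fraction. In each of these pairs, treated and control libraries of a fraction did not overlap. The ratio of CALR to CANX went the other way, from 0.87 ± 0.26 to 0.13 ± 0.19 in GFP-positive and from 1.86 ± 0.45 to 0.68 ± 0.15 in GFP-negative cells. Of 10 pairs compared, 3 had overlapping libraries. The ratio of CRELD2 to CRELD1 was -0.88 ± 0.23 and -0.59 ± 0.43 in GFP-positive and 0.71 ± 0.31 and 0.67 ± 0.21 in GFP-negative cells, and that of MANF to CDNF 7.56 ± 0.42 and 8.30 ± 0.38 and then 9.08 ± 1.74 and 8.60 ± 0.34, with overlap in both fractions. That of TMX1 to TMX4 overlapped in GFP-negative cells, at -0.63 ± 0.37 and -0.30 ± 0.27. These ratios are of CPM, so their changes can be read but not which gene of a pair had more transcripts, and reads of near-identical copies may have been split between genes.

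**Figure D4:**
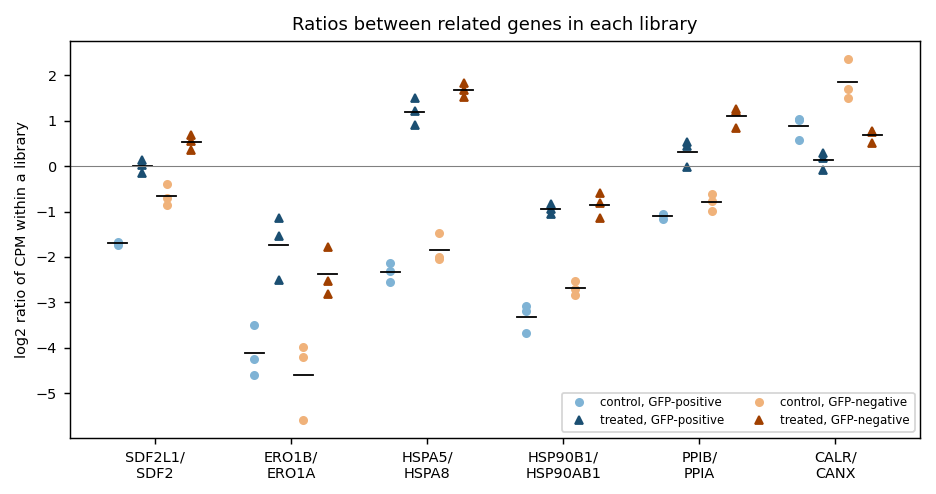
log2 ratio of the CPM of related genes within each library (y axis) for 6 pairs (x axis), with circles for control, triangles for treated libraries and a bar at the mean of each group of 3. The ratio of HSPA5 to HSPA8 lies below 0 in all control and above 0 in all treated libraries.

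Levels of different genes were set side by side per kilobase of annotated exon, which need not be the length of the transcripts made. CALR led in control GFP-positive cells with 191 ± 9.30 CPM per kb (SD, n = 3). PPIB followed with 75.3 ± 9.77, HSPA5 with 48.9 ± 5.31 and P4HB with 47.2 ± 7.12. The libraries of HSPA5 and P4HB overlapped, so the order of these neighbours is not settled by their spread. In treated GFP-positive cells HSPA5 stood at 487 ± 64.3 and CALR at 421 ± 26.8 CPM per kb, with overlapping libraries, and HYOU1 followed with 172 ± 34.2. In treated GFP-negative cells HSPA5 at 925 ± 94.7 lay above CALR at 565 ± 55.4 in every library. With the length of the longest transcript in place of all exons, CALR at 620.3 ± 39.5 stood before HSPA5 at 589 ± 77.7 in treated GFP-positive cells. By that length, PDIA3 at 72.7 ± 5.41, ERP29 at 65.3 ± 7.51 and P4HB at 64.0 ± 9.66 also stood before HSPA5 at 59.1 ± 6.42 in control GFP-positive cells. The order below CALR and PPIB there, and that of CALR and HSPA5 after treatment, thus depends on the length used. CALR and PPIB led there by both annotated lengths, which for PPIB are 4369 and 4064 bases. The lengths of the transcripts expressed were not measured, so the place of these genes is not settled either.

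Without cis-chlordane, more members were lower than higher in GFP-positive cells when set against GFP-negative cells. Of 39 tested, 17 were lower, against 23.1% of all genes, and 4 were higher, against 17.1%. DEGs with lower levels in GFP-positive cells numbered 8, against 15.3% of all genes, and DEGs with higher levels 0, against 7.47%. The libraries did not overlap for 16 members lower in GFP-positive cells, against 24.1% of all genes, and for 5 that were higher, against 29.1%. The medians were -0.65 for chaperones, -0.35 for the PDI family and -0.86 for isomerases, beside -0.02 for all genes tested.

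The 8 DEGs were SERPINH1, FKBP10, PDIA5, PDIA4, SDF2L1, PDIA6, TMX1 and CALR. SERPINH1 stood at 30.2, 33.6 and 39.6 CPM in GFP-positive and 411, 376 and 304 CPM in GFP-negative control cells, 11.3-fold lower with a log2 fold change of -3.50 ± 0.18 (adjusted p = 8.7e-07). FKBP10 stood at 17.8, 19.6 and 16.8 and 198, 182 and 153 CPM, with -3.40 ± 0.16 (adjusted p = 8.7e-07), and PDIA5 at 4.21, 3.36 and 4.26 and 14.9, 13.2 and 11.0 CPM, with -1.83 ± 0.22. The other 5 lay between -1.34 for PDIA4 and -1.08 for CALR. CALR and SDF2L1 missed the 2-fold limit without control GFP-negative replicate 1 (-0.98 and -0.99), and TMX1 without replicate 3 of that group (-0.74) or GFP-positive replicate 2 (-0.997). Without the control library with blood transcripts, 20 members were lower and 4 higher, and of these 9 and 2 were DEGs. HSP90B1, MANF and FKBP14 passed the 2-fold limit without GFP-negative replicate 2 (-1.07, -1.06 and -1.02) or GFP-positive replicate 1 (-1.09, -1.05 and -1.07). MANF (-1.12) and FKBP14 (-1.01) also did so without GFP-negative replicate 3, and HSP90B1 (-1.03) and FKBP14 (-1.04) without GFP-positive replicate 3. After removal of the GC trend HSP90B1 (-1.13) and FKBP14 (-1.14) did so too, and DNAJC10 (-0.40) passed the test as lower.

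The other genes lower in GFP-positive cells were HSP90B1 (-0.99), FKBP14 (-0.99), MANF (-0.97), TXNDC12 (-0.86), PPIB (-0.85), CRELD2 (-0.83), P4HB (-0.83), HSPA5 (-0.78) and SIL1 (-0.69). SIL1 lost its call without any single one of the control libraries except GFP-negative replicate 3 (from -0.77 to -0.44), and CRELD2 without GFP-positive replicate 2 (-0.80) or 3 (-0.73). Higher in GFP-positive cells were FKBP7 (0.84 ± 0.23), DNAJB9 (0.84 ± 0.23), CRELD1 (0.80 ± 0.15) and TMX4 (0.72 ± 0.17), each with all 3 GFP-positive libraries above the GFP-negative ones. DNAJB9 passed the 2-fold limit without GFP-negative replicate 3 (1.05) or GFP-positive replicate 2 (1.01), and FKBP7 without the former (1.04). DNAJB9 missed the threshold without GFP-positive replicate 1 (0.76) or 3 (0.79) or GFP-negative replicate 2 (0.82), and FKBP7 without GFP-positive replicate 3 (0.75) or GFP-negative replicate 2 (0.73). Without GFP-negative replicate 3, DNAJC1 (-0.79), PDIA3 (-0.55) and ERP29 (-0.745) passed as lower, and without GFP-negative replicate 1 TXNDC5 did (-1.37). Same-numbered control libraries were taken as sorts of the same culture, and with the replicate number as a block HYOU1 (-0.31), DNAJC1 (-0.57), PDIA3 (-0.41) and ERP29 (-0.50) also passed as lower in GFP-positive cells.

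**Figure D5:**
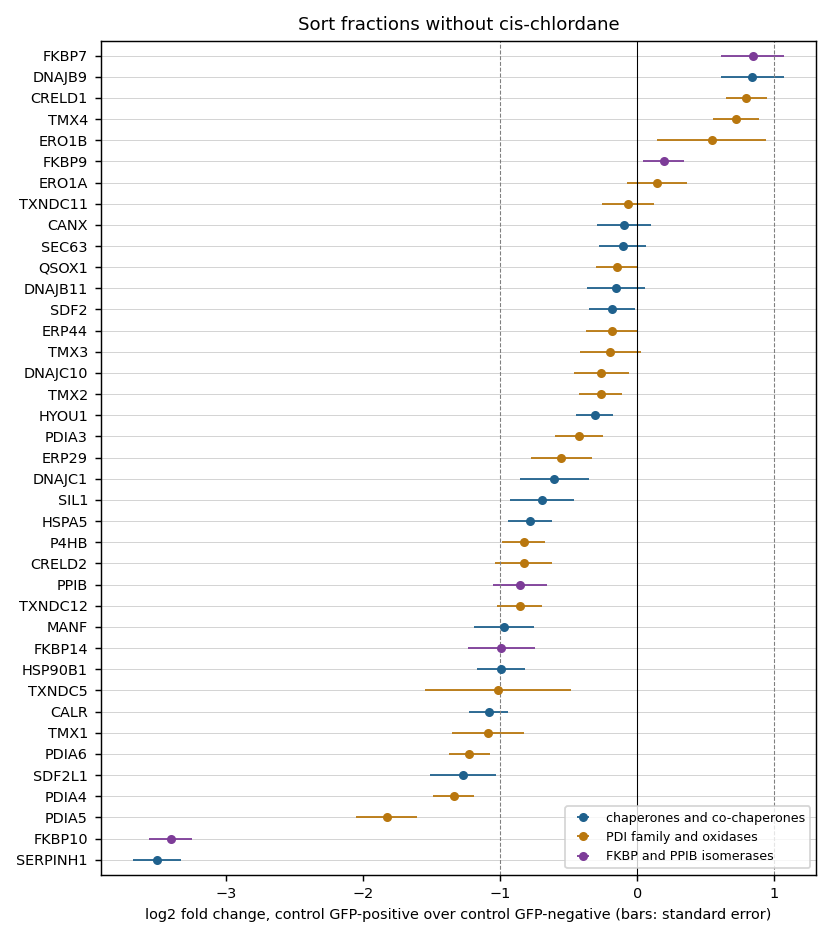
log2 fold change of control GFP-positive over control GFP-negative cells (x axis, bars give the standard error) for the 39 genes tested, coloured by gene group. SERPINH1 and FKBP10 lie apart at -3.50 and -3.40, and dashed lines mark 2-fold differences.

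Markers of other cells moved with the sort. The 11 motor neuron markers summed to 11850 to 15960 CPM in control GFP-positive and 3429 to 3683 CPM in control GFP-negative cells, the 12 progenitor markers to 3259 to 3592 and 6439 to 8507 CPM, the 8 cycling markers to 98.2 to 136 and 822 to 1014 CPM, and the 12 mesenchymal markers to 303 to 379 and 1139 to 1210 CPM. Of the mesenchymal list PRRX1 had no GFP-positive control library above 3 counts, and of the progenitor list HES5 had no library above 3 counts in any group. The 18 collagens and collagen-modifying enzymes summed to 902 to 998 CPM in GFP-positive and 1930 to 2253 CPM in GFP-negative controls. Of 17 tested, 14 were lower in GFP-positive cells, 11 as DEGs, against 23.1% and 15.3% of all genes. The part of these cells in the levels of the members was not tested. Treatment went with lower sums of the motor neuron markers (7649 to 11130 CPM in treated GFP-positive and 1594 to 2116 CPM in treated GFP-negative cells) and of the mesenchymal markers (76.6 to 118 and 619 to 989 CPM), while the progenitor sums lay at 2532 to 3355 and 7418 to 8468 CPM. The cycling markers summed to 60.3 to 64.9 and 253 to 366 CPM in treated cells, below the controls of the same fraction. The 12 interneuron markers went from 8.76 to 9.95 CPM in control to 2.65 to 3.27 CPM in treated GFP-positive cells and from 35.7 to 40.2 to 9.35 to 12.5 CPM in GFP-negative cells, and the 9 astrocyte and oligodendrocyte markers from 10.6 to 13.6 to 3.87 to 5.30 CPM and from 48.9 to 80.3 to 13.1 to 19.8 CPM. The 6 pluripotency markers went from 155 to 171 to 49.2 to 60.7 CPM and from 221 to 258 to 112 to 155 CPM, with POU5F1, NANOG and TDGF1 not above 3 counts in any library. Those of endothelial and blood cells lay at 3.68 to 6.53 CPM in control and 7.88 to 28.2 CPM in treated GFP-positive cells, and at 16.0 to 4076 CPM and 129 to 254 CPM in GFP-negative cells. These sums rest largely on KDR and, in single libraries, HBB. KDR went from 1.34, 1.16 and 1.38 to 9.70, 7.30 and 8.03 CPM in GFP-positive cells. In GFP-negative cells it went from 9.13, 10.2 and 8.95 to 92.8, 126.5 and 85.8 CPM. At low levels, TEK lay lower in treated libraries of both fractions, and CDH5 in those of GFP-positive cells. The part of these changes in the response of the members was likewise not tested.

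The difference of the response between fractions was tested by the interaction of treatment and fraction. None of 40 members passed (edgeR quasi-likelihood test, adjusted p under 0.05), against 2.19% of all genes, and 9 had an unadjusted p under 0.05, against 16.6% of all genes. DESeq2, run on 22590 genes with a count and 41 members, called 3, CALR, PDIA5 and QSOX1, against 3.53% of those genes. The edgeR fit held 16226 genes after its filter, so the share of all genes with DESeq2 is on a wider set. With same-numbered fractions taken as sorts of 1 culture, the fit with a culture block called 3, PDIA5, QSOX1 and PPIB, against 7.79% of all genes, so the share of the members lies at that of all genes. Without the control library with blood transcripts that fit called PDIA5 (1.21) and QSOX1 (-0.76), against 5.6% of all genes, and PPIB, at -0.70, did not pass. The log2 fold change in GFP-positive cells minus that in GFP-negative cells was 1.03 ± 0.25 (adjusted p = 0.0233) for PDIA5, -0.78 ± 0.16 (adjusted p = 0.0112) for QSOX1 and -0.77 ± 0.20 (adjusted p = 0.0323) for PPIB with the block, and 1.02 ± 0.29 (adjusted p = 0.0868), -0.78 ± 0.21 (adjusted p = 0.065) and -0.76 ± 0.29 (adjusted p = 0.189) without it. For HSPA5 the difference was -0.24 ± 0.21 (adjusted p = 0.609), and for CALR 0.55 ± 0.19 (adjusted p = 0.141), which passed with library size alone at 0.81. Without control GFP-negative replicate 1, DNAJC1 passed at -1.02.

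Other folding genes of the ER, which the 41 leave out, were described for comparison, as were the lists that follow. Over all genes tested, 26.5% rose and 24.4% fell in GFP-positive cells, and 15.3% rose and 16.2% fell in GFP-negative cells. DEGs with higher levels were 12.8% and 8.59% of all genes, and DEGs with lower levels 11.2% and 9.75%. Of 41 such genes 36 were tested, of which 16 rose and 2 fell in GFP-positive cells and 14 rose in GFP-negative cells, 7 and 9 as DEGs, with medians of 0.27 and 0.34. DNAJC3 (p58IPK), a co-chaperone that restrains PERK, rose by 2.84 ± 0.23 and 1.56 ± 0.21, the lectin chaperone CLGN by 1.98 ± 0.20 and 1.94 ± 0.19, and the cyclophilin PPIC by 1.99 ± 0.40 and 1.75 ± 0.32. HSPA13, an HSP70 relative of microsomes, rose by 1.90, and SELENOM, a thioredoxin-like selenoprotein, by 2.15 in GFP-negative cells.

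The relatives of the members outside the ER had lower medians. Of 31 cytosolic chaperones, thioredoxins and isomerases, 5 rose and 7 fell in GFP-positive cells, against 26.5% and 24.4% of all genes. In GFP-negative cells 1 rose and 4 fell, against 15.3% and 16.2%. The counts that fell are near these shares. Medians were 0.00 in GFP-positive and 0.03 in GFP-negative cells. None of the 31 was a DEG with higher levels in either fraction, and the glutaredoxin GLRX (-1.06 ± 0.19) was among the DEGs with lower levels in GFP-positive cells. Of 14 mitochondrial relatives, 6 rose in GFP-positive and 3 in GFP-negative cells, against 26.5% and 15.3% of all genes, and 1 fell in each. DEGs with higher levels numbered 2 in each, against 12.8% and 8.59%, and the medians were 0.49 and 0.08. HSPA9, the HSP70 of mitochondria, rose from 201 to 935 CPM and from 221 to 974 CPM (group means), by 2.29 ± 0.16 and 2.12 ± 0.15, its exchange factor GRPEL2 by 1.497 in GFP-positive cells, and GLRX2 by 1.09 in GFP-negative cells.

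Of 15 sensors and transcription factors of the UPR, 9 rose and 1 fell in GFP-positive cells, against 26.5% and 24.4% of all genes. In GFP-negative cells 10 rose, against 15.3%. Each fraction had 9 DEGs, with medians of 1.13 in GFP-positive and 1.36 in GFP-negative cells. DDIT3 (CHOP) rose by 3.62 ± 0.21 and 3.05 ± 0.37, XBP1 by 2.64 ± 0.18 and 2.46 ± 0.17, and EIF2AK3, which encodes PERK, by 2.58 ± 0.21 and 2.10 ± 0.30. Of the collagens and their modifying enzymes, the clients and partners of SERPINH1, FKBP10, FKBP14, PPIB and P4HB, 5 of 16 tested rose and 7 fell in GFP-positive cells. The shares of all genes were 26.5% and 24.4%, so the count that rose is near its share. In GFP-negative cells 7 of 17 rose and 6 fell, against 15.3% and 16.2% of all genes. P4HA2, a catalytic partner of P4HB, rose by 1.73 ± 0.18 and 2.11 ± 0.19, while COL2A1 fell by 2.71 and 2.46 and COL1A1 by 1.91 and 1.11 on the log2 scale. In GFP-positive cells COL1A2 fell by 2.02, against a rise of 0.62 in GFP-negative cells, and COL5A1 and P4HA1 rose by 1.60 and 1.28, and in GFP-negative cells COL11A1 rose by 1.28 and COL4A1 fell by 1.03.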

How the data were processed

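The deposited counts are raw reads per gene symbol that the authors made from single-end, reverse-strand reads of a stranded mRNA library, with the lanes of a library joined, aligned by HISAT2 to hg38 with an Ensembl GRCh38 annotation and counted by featureCounts. The settings of featureCounts are not given in the sources used here. All 12 columns of counts were mapped to samples by name, and 0 columns were left unused.

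Counts were tested with edgeR 4.0.16 in R 4.3.3 by the quasi-likelihood F-test with TMM scaling, after filterByExpr (minimum count 10, minimum total 15), separately for treated against control GFP-positive cells, treated against control GFP-negative cells and the control fractions, and with all 12 libraries for the interaction. A gene rose or fell at a Benjamini-Hochberg adjusted p under 0.05 over all genes tested and was a DEG where its fold change was also at least 2. CPM values use 1 TMM scaling over the 12 libraries, and levels between genes were divided by the kilobases of all exons in GENCODE release 44, which is not the release the authors used. An exact permutation test of 3 against 3 libraries cannot go below p = 0.1, so none is given. The fits were also run on simulated counts with known changes in a small part of the genes and the same dispersion for every gene. In these data far more genes changed, so that run checks the code and not the error rates here. Counting precision is set by the depth of each library, and 3 counts were taken as the floor.

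The members and gene lists were chosen with earlier results of these data known. Every member is named, and of each other list up to 3 DEGs with the largest change in each direction and fraction at a mean of at least 1 CPM, apart from 1 gene that is not reported here. Same-numbered GFP-positive and GFP-negative libraries were taken as sorts of the same culture: the residuals of such pairs around their groups correlated at 0.16 to 0.473 in control and 0.201 to 0.545 in treated cells over 13368 genes, so the control fractions and the interaction are also given with that block. Pairs of unlike number ran from -0.495 to 0.098 in control and from -0.44 to 0.28 in treated cells. The highest of these in treated cells exceeds the lowest same-numbered pair, so the correlations alone do not settle the pairing there. Alternatives were DESeq2 1.42.0, RLE scaling, library size alone, other filters, a GC trend removed by loess, glmTreat, replicate blocks, a fit of all libraries, the longest transcript as length, each library left out and, added after seeing the data, the culture block without control GFP-negative replicate 3. Figures were drawn with Python 3.11.15 and matplotlib 3.10.9. Protein sequences were not analysed here.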

Additional observations from a re-analysis of the deposited data

Results flagged for a closer look

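The response to cis-chlordane differed between sort fractions for 3 members in the test of the difference with a culture block (edgeR quasi-likelihood test, adjusted p under 0.05), of 40 tested, while 7.79% of all genes passed that test, so the count is near the background. For PDIA5 the log2 fold change in GFP-positive cells exceeded that in GFP-negative cells by 1.03. For QSOX1 the difference was -0.78, with a fall in GFP-positive cells and treated libraries above controls in GFP-negative cells. For PPIB it was -0.77, with a rise in both fractions that was smaller in GFP-positive cells, and without control GFP-negative replicate 3, which held blood transcripts, it was -0.70 and did not pass. In edgeR none of these 3 passed without a block, while PDIA5 and QSOX1 also passed with DESeq2 and PDIA5 with the replicate number as a block, and none of the other 37 members tested passed with it.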

How the results depend on the processing

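With glmTreat, which tests against a 2-fold change, 14 members in place of 23 were DEGs with higher levels in GFP-positive cells, 10 in place of 20 in GFP-negative cells, and 3 in place of 8 were lower in control GFP-positive than GFP-negative cells. QSOX1 was the 1 member that fell in GFP-positive cells, and with library size alone 0 did. For the interaction, 0 members passed upwards in the fit reported first, against 2 with DESeq2, 1 with library size alone, 1 with the replicate block and 1 with the culture block, and 0 passed downwards, against 1 with DESeq2 and 2 with the culture block. The culture block without control GFP-negative replicate 3, chosen after seeing the data, gave 1 upwards and 1 downwards. With each library left out in turn, DEGs with higher levels ranged from 22 to 24 in GFP-positive and from 16 to 25 in GFP-negative cells, and members that fell in GFP-positive cells from 0 to 1. Between control fractions, DEGs higher in GFP-positive cells ranged from 0 to 2, DEGs lower from 7 to 11 and members higher at an adjusted p under 0.05 from 2 to 4. Interaction calls downwards ranged from 0 to 1 and upwards stayed at 0. The causes of these changes were not tested, except that glmTreat sets a stricter limit by its construction and a left-out library leaves fewer samples.

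Some values near 0 that passed no test changed sign. With single libraries left out, the log2 fold change of SIL1 in GFP-positive cells ranged from -0.104 to 0.218, reaching -0.033 without control replicate 3. In GFP-negative cells SDF2 ranged from -0.054 to 0.219 (-0.021 without treated replicate 3) and FKBP9 from -0.33 to 0.11. Between control fractions CANX ranged from -0.266 to 0.057 (0.021 without GFP-positive replicate 1), DNAJB11 from -0.265 to 0.119, TXNDC11 from -0.15 to 0.10, TMX3 from -0.36 to 0.029 and SEC63 from -0.20 to 0.015 (0.013 without GFP-positive replicate 2). Removal of the GC trend gave -0.017 for TMX4 in GFP-negative cells and -0.033 for ERO1A between control fractions. Library size alone gave 0.002 for the interaction of HSPA5, and it moved the median log2 fold change of all genes in GFP-positive cells from 0.03 to 0.14. The median level of the members in control GFP-positive cells was 7.72 CPM per kb over all exons and 10.7 by the longest transcript.

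Treated and control libraries of the same number are not marked as a pair: their correlations ran from -0.037 to 0.233 in GFP-positive and from -0.083 to 0.251 in GFP-negative cells. The replicate block gave 24 and 21 DEGs with higher levels there, and 8 lower between control fractions.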
